A study of Mus musculus with 28 samples.

Results

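Toll-like receptors are membrane proteins that recognise microbial products, and mouse macrophages carry many of them. The 9 genes described here are Tlr1, Tlr2, Tlr3, Tlr4, Tlr6, Tlr7, Tlr8, Tlr9 and Tlr13, taken as a list of receptor genes from a count table of 54532 genes. Levels are in TPM, which is counts per kilobase of exon scaled to a fixed sum per library. Each of the 9 reached 10 TPM in at least 1 culture, as did 8867 genes in all. The other mouse receptors of this family, Tlr5, Tlr11 and Tlr12, had group means of at most 0.373 TPM and were not tested.

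RNA was sequenced from 28 cultures of murine bone marrow-derived macrophages (BMDM), grown with M-CSF from marrow of C57/B6JB mice aged 8 to 12 weeks, to ask how von Willebrand factor acts on these cells. All cultures were kept in medium with 1 mM CaCl2. The control cultures received PBS (n = 5 at 3.5 h, n = 5 at 16 h), the VWF cultures received human plasma-derived von Willebrand factor at 10 µg/ml (n = 5 at each time), and the LPS cultures received bacterial lipopolysaccharide at 100 ng/ml (n = 4 at each time). Von Willebrand factor (VWF) is the large plasma glycoprotein that tethers platelets to damaged vessel walls. No source says which mice gave which culture, so the p-values below measure only the spread between these cultures.

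Surface receptors of this family recognise components of the microbial envelope, with TLR2 pairing with TLR1 or TLR6 for lipopeptides and TLR4 recognising lipopolysaccharide. A second set sits in endosomes and recognises nucleic acids, and these receptors need the chaperone UNC93B1 to get there. Most signal through the adaptor MyD88, TLR3 signals through TRIF, and TLR4 uses both, towards NF-κB and interferon regulatory factors.

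The libraries held between 41131209 and 77699206 counts. The 6 macrophage markers examined each reached 10 TPM in every group, and their summed level ranged from 1025 to 7389 TPM over the cultures. T cell and erythroid markers stayed under 1 TPM in each group, as did 4 of 5 B cell markers. Of the neutrophil markers 2 of 5 reached 10 TPM in every group (summed 14.0 to 112 TPM over the cultures), and of the fibroblast markers 2 of 3 (3.47 to 141 TPM), while no mast cell marker did (0.571 to 4.77 TPM). The summed dendritic cell markers were higher with LPS (6.73 to 11.9 TPM over both times) and with VWF at 3.5 h (8.27 to 10.2 TPM) than in controls (0.320 to 0.906 TPM). Xcr1 carried most of that sum (group means of 10.4 TPM with LPS and 7.92 TPM with VWF at 3.5 h), while Siglech and Flt3 had group means of at most 0.173 TPM and 0.0275 TPM. The part of these cell types in the receptor values was not tested. In such bulk cultures, fewer cells of a type and less RNA per cell cannot be told apart.

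3 libraries at 16 h stood apart from the rest of their groups, and where they decided whether a value printed here passed, it is given with and without them. In control replicate 5, Tlr8 was listed at 0 counts, against 1167 to 2583 counts in the other control cultures at 16 h. In that library 94 of 9915 genes compared lay at or below 0.1 times the lowest other control culture, in LPS replicate 4 it was 22 of 8925 genes, and in VWF replicate 4 it was 1 gene. The share of counts in ribosomal protein genes was 9.52% in control replicate 5 against 4.99% to 5.76% in the other controls, 4.53% in LPS replicate 4 against 2.42% to 3.12%, and 7.10% in VWF replicate 4 against 4.57% to 5.71%. These 3 libraries were chosen after the data were seen, and none at 3.5 h was left out with them. On the log2 scale, VWF replicate 4 lay 0.325 above its group mean in this share. Control replicate 4 (-0.439) and VWF replicate 5 (-0.413) at 3.5 h lay further from theirs.

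The 300-base windows around the annotated starts of 4 receptor genes are shown because these genes rose or fell most at 3.5 h, or, for Tlr6, because its window holds interferon-type sites. They run from 250 bases before to 50 bases after a RefSeq start on build GRCm38.p6, 5′ to 3′ on the gene's strand. The windows are chr3:83841559-83841858 (minus strand) for Tlr2, chr8:45410331-45410630 (minus strand) for Tlr3, chr5:64959117-64959416 (minus strand) for one of the starts of Tlr6, and chrX:106143025-106143324 (plus strand) for Tlr13. Capitals mark matches to the NF-κB consensus or to the ISRE core (GAAA, any 2 bases, GAAA), searched on both strands.
Tlr2: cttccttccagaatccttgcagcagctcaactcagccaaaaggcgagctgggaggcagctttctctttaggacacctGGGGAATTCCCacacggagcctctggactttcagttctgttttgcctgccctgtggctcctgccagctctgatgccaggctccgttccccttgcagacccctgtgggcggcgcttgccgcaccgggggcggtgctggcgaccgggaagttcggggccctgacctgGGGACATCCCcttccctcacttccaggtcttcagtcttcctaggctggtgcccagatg
Tlr3: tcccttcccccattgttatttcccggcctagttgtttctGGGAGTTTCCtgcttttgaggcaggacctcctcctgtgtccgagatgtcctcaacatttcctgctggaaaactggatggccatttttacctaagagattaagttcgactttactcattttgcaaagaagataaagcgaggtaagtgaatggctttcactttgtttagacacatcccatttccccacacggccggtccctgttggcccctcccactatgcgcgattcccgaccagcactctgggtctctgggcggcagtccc
Tlr6: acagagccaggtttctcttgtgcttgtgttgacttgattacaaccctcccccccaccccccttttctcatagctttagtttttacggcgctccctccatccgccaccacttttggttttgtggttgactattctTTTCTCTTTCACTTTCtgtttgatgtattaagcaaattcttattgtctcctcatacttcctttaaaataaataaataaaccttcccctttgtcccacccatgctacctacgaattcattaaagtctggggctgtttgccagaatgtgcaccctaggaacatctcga
Tlr13: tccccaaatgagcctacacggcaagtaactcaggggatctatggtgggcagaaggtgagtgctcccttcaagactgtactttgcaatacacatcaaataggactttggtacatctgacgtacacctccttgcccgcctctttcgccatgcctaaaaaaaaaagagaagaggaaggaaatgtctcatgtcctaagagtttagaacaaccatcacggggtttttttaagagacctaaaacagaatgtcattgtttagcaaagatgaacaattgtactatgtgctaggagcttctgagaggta
The Tlr2 window held 3 NF-κB matches, of which the pair starting 173 and 172 bases before the start overlapped, and the last began 8 bases before it. The Tlr3 window held 1 NF-κB match, which began 211 bases before the start, and no ISRE core. The Tlr6 window held 2 ISRE cores, which overlapped and began 116 and 110 bases before the start, and the Tlr13 window held neither motif. Of 32817 such windows around RefSeq starts, 8.46% held an NF-κB match and 3.43% an ISRE core. RefSeq gave 9 windows in all, for 7 of the 9 genes, and those of Tlr1, Tlr8 and Tlr9 and the other one of Tlr6 held neither motif. The GAS core (TTC, any 3 bases, GAA) was found in a window each of Tlr1, Tlr6 and Tlr8 and in 8.29% of all windows. The PU.1 core GAGGAA was found in windows of Tlr1, Tlr8, Tlr9 and Tlr13 and in 28.3% of all windows. A match describes letters only.

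Levels between genes are compared per length, in TPM. In controls at 3.5 h, Tlr2 (316 ± 86.5 TPM, mean ± SD, n = 5) and Tlr13 (217 ± 61.6 TPM) were the most abundant receptor transcripts, and their ranges overlapped. Tlr7 followed at 59.4 ± 14.8 TPM, apart from both neighbours. Tlr1, Tlr8 and Tlr4, between 19.9 and 22.3 TPM, could not be ordered. Tlr6, Tlr9 and Tlr3, between 3.24 and 7.79 TPM, also overlapped from one to the next. At 16 h Tlr13 came first in controls at 192 ± 38.4 TPM, apart from Tlr2 at 56.3 ± 11.5 TPM, and Tlr9 came last at 1.84 ± 1.12 TPM.

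With either treatment at 3.5 h, Tlr2 made up most of the receptor transcripts. Its share of the summed TPM of the 9 genes was 39.1% to 53.2% in controls, 86.7% to 91.5% with VWF and 81.5% to 84.4% with LPS, and these 3 ranges were apart. The sum itself was 674 ± 185 TPM in controls, 2489 ± 302 TPM with VWF and 1175 ± 112 TPM with LPS. At 16 h the share of Tlr2 was 13.8% to 19.7% in controls, 28% to 39.9% with VWF and 15.4% to 20.3% with LPS. The 5 endosomal receptor genes together held 69.5% ± 1.51 of the sum in controls at 16 h, 51.9% ± 2.86 with VWF and 59.3% ± 1.73 with LPS.

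**Figure D1:**
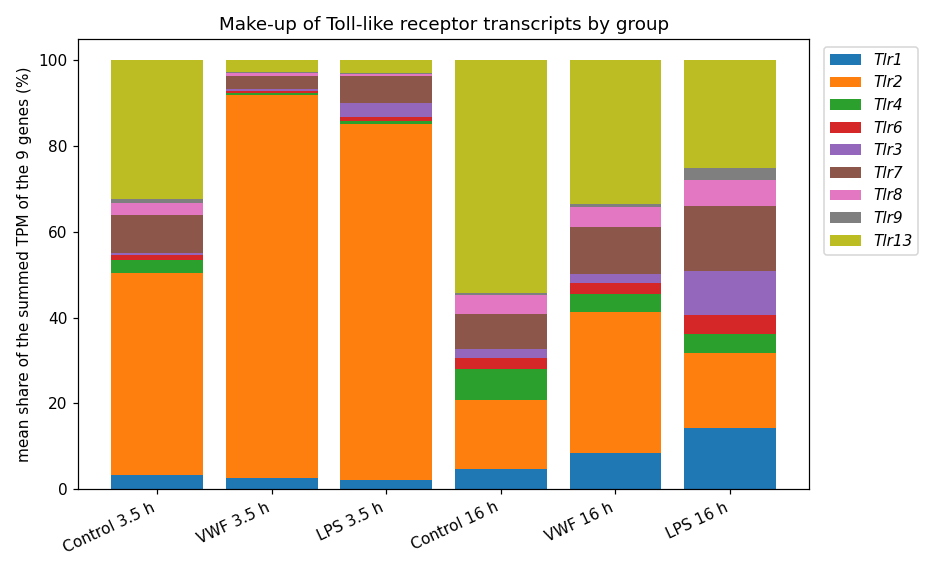
Stacked bars give the mean share of each receptor gene in the summed TPM of the 9 genes (%, y axis) for the 6 groups (x axis). Tlr2 takes most of the bar at 3.5 h with VWF (89.4%) and LPS (83.0%), and Tlr13 the largest segment in controls at 16 h (54.3%).

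Changes were tested with edgeR's quasi-likelihood test over all genes reaching 10 TPM in a comparison, with Benjamini-Hochberg adjustment over all of them, and a gene was called at an adjusted p under 0.05 and a change of at least 2-fold. Values per culture are in CPM, counts scaled to a fixed library total with TMM factors, given in the order of the replicate numbers, and log2 fold changes carry their SE. Both treatments were compared with the same control cultures.

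With VWF at 3.5 h, 7 of the 9 receptor genes passed the adjusted p, as did 43.6% of all 8200 genes tested. Of these 6 were called, against 14.7% of all genes. Tlr1, Tlr2, Tlr3 and Tlr6 were called higher and Tlr4 and Tlr13 lower, against 9.1% and 5.59% of all genes in these directions. The median log2 fold change of the 9 genes was 0.54, against -0.01 for all genes. With LPS at 3.5 h, 7 passed and 4 were called, where 65.7% of 8190 genes passed and 24.5% were called. Tlr2, Tlr3 and Tlr6 were called higher and Tlr13 lower, against 12.8% and 11.8% of all genes. The median was 0.84 for the 9 genes and -0.02 for all genes. Tlr3 reached the filter at 3.5 h only in treated cultures, as controls held at most 3.85 TPM. With no filter, 6 receptor genes were called with VWF and 5 with LPS. Libraries scaled by their totals alone moved the median of all genes with LPS to -0.55 at 3.5 h and -0.59 at 16 h. Under that scaling Tlr6 (0.61) was no longer called with LPS at 3.5 h, while Tlr4 (-1.16), Tlr8 (-1.61) and Tlr9 (-1.51) were called lower. Tlr1 with LPS (0.29, adjusted p = 0.287) and Tlr7 with VWF (0.32, adjusted p = 0.0980) no longer passed at 3.5 h under it.

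At 16 h, VWF had 2 receptor genes called, Tlr1 and Tlr2, both higher, of 8 that reached the expression filter. Of all 7798 genes 27.7% passed the adjusted p, 8.71% were called and 4.55% were called higher. Tlr9 was below the filter there. With LPS at 16 h, 7 of 9 passed and 5 were called, all higher (Tlr1, Tlr3, Tlr6, Tlr7, Tlr9), where 53.7% of 7994 genes passed, 27.6% were called and 15.3% were called higher. Tlr3 and Tlr9 reached the filter there only in LPS cultures, as controls held at most 7.81 and 2.89 TPM. With no filter, 5 were called with LPS. With VWF, 2 passed in the edgeR fit with the filter and 6 with DESeq2. Without the 3 libraries that stood apart, 7 genes passed and 2 were called with VWF, and 8 passed and 6 were called with LPS, Tlr8 among them.

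**Figure D2:**
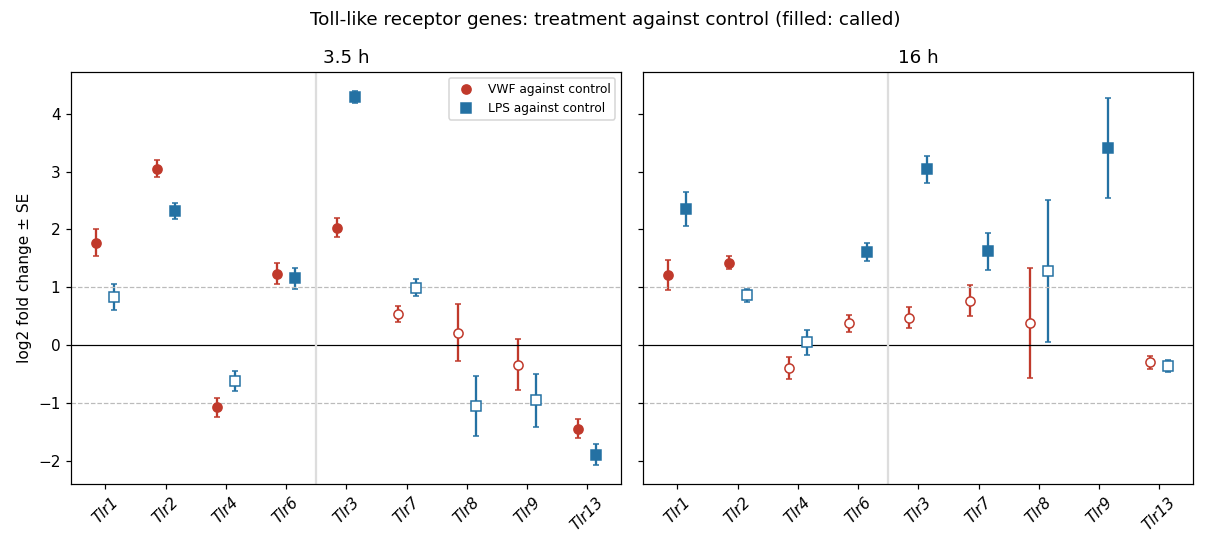
Points give the log2 fold change against control (y axis, ± SE) of each receptor gene (x axis, surface receptors left of the grey line, endosomal ones right) at 3.5 h (left panel) and 16 h (right panel), circles for VWF and squares for LPS, filled where called; dashed lines mark a 2-fold change. Tlr2 stands highest with VWF at both times (3.05 and 1.43), Tlr3 highest with LPS at 3.5 h (4.29), and Tlr9 with VWF at 16 h is not shown because it did not reach the filter.

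Tlr2, whose product senses bacterial lipopeptides, rose most among the receptors with VWF. At 3.5 h it measured 266, 333, 242, 378 and 237 CPM in controls, 2104, 2421, 2445, 2430 and 2548 CPM with VWF, and 1409, 1476, 1545 and 1348 CPM with LPS. The 3 groups did not overlap, with every VWF culture above every LPS culture. The log2 fold change against control was 3.05 ± 0.14 with VWF (adjusted p = 2.05e-08) and 2.32 ± 0.15 with LPS (adjusted p = 1.15e-07), and VWF exceeded LPS by 0.76 ± 0.09 (adjusted p = 6.13e-05, under 2-fold).

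At 16 h Tlr2 was lower in each group. It measured 48.2, 54.1, 60.7, 66.5 and 58.4 CPM in controls, 165, 156, 172, 163 and 125 CPM with VWF, and 107, 97.6, 113 and 93.5 CPM with LPS. In CPM, the order of the 3.5 h cultures, controls below LPS below VWF, held without overlap. In TPM, LPS (53.7 to 88.5 TPM) and control cultures (41.2 to 70.3 TPM) overlapped. Against control the log2 fold change was 1.43 ± 0.11 with VWF (adjusted p = 7.33e-06) and 0.86 ± 0.11 with LPS (adjusted p = 0.000120, under 2-fold). Scaled by library totals alone, the LPS value was 0.31 ± 0.15 and did not pass (adjusted p = 0.0921). Between 3.5 h and 16 h, Tlr2 fell by 2.34 ± 0.16 on the log2 scale in controls (adjusted p = 3.63e-06), by 3.93 ± 0.11 with VWF (adjusted p = 6.09e-10) and by 3.79 ± 0.11 with LPS (adjusted p = 1.01e-07).

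Tlr1, which encodes the partner of TLR2 for triacylated lipopeptides, rose with VWF at both times. At 3.5 h it measured 14.5, 18.8, 20.4, 34.6 and 24.7 CPM in controls, 78.4, 65.7, 60.3, 69.6 and 106 CPM with VWF, and 30.9, 45.5, 47.2 and 36.6 CPM with LPS. VWF cultures lay above both other groups, while LPS and control cultures overlapped. VWF cultures exceeded controls by 1.77 ± 0.23 on the log2 scale (adjusted p = 7.25e-05), and LPS cultures by 0.84 ± 0.22 (adjusted p = 0.00652, under 2-fold). VWF exceeded LPS by 0.96 ± 0.18 (adjusted p = 0.00170), just under 2-fold, and was called without VWF replicate 2 or 3 or LPS replicate 2 or 3. With LPS, Tlr1 was called without control replicate 4 (1.04), and it did not pass when scaled by library totals alone (0.29, adjusted p = 0.287).

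At 16 h the order of the treatments for Tlr1 turned around. It measured 18.2, 20.9, 25.4, 21.9 and 10.0 CPM in controls, 38.7, 47.4, 60.4, 29.1 and 50.2 CPM with VWF, and 102, 90.7, 133 and 61.7 CPM with LPS. All 4 LPS cultures were above all VWF cultures, and these above all controls. Against control the differences were 1.21 ± 0.26 with VWF (adjusted p = 0.00585) and 2.35 ± 0.29 with LPS (adjusted p = 9.33e-05), and VWF lay below LPS by -1.09 ± 0.25 (adjusted p = 0.00409). The call of VWF against LPS at 16 h went under 2-fold without LPS replicate 3 (-0.90) or VWF replicate 4 (-0.96).

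Tlr6, which encodes the other partner of TLR2, rose with both treatments at 3.5 h. It measured 6.59, 7.67, 8.48, 10.6 and 11 CPM in controls, 18.8, 18.5, 17.8, 18.7 and 29.3 CPM with VWF, and 15.4, 18.2, 25.6 and 19.3 CPM with LPS. Both treatments lay above all controls and overlapped each other. Against control, Tlr6 rose by 1.23 ± 0.18 on the log2 scale with VWF (adjusted p = 0.000196) and 1.16 ± 0.18 with LPS (adjusted p = 0.000183), and the difference between them, 0.10 ± 0.18, did not pass (adjusted p = 0.651).

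At 16 h Tlr6 was called with LPS only among the treatments. It measured 10.4, 10.7, 13.4, 12.5 and 9.37 CPM in controls, 12.7, 15.1, 17.9, 11.8 and 16.3 CPM with VWF, and 37.1, 34.3, 38.4 and 25.1 CPM with LPS. LPS cultures lay above all others, and VWF overlapped controls. Against control the difference was 1.60 ± 0.16 with LPS (adjusted p = 1.85e-05) and 0.38 ± 0.15 with VWF (adjusted p = 0.0960, and 0.41 ± 0.12, adjusted p = 0.0195, without the libraries that stood apart), and the difference of VWF from LPS itself was -1.18 ± 0.17 (adjusted p = 0.000174). Tlr1 and Tlr6 lie side by side on chromosome 5 and share 7.89% and 7.09% of their 100-base exon windows with each other, and whether this affected their counts was not tested.

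Tlr4, which encodes the receptor for lipopolysaccharide, fell with VWF at 3.5 h. It measured 25.7, 29.9, 31.6, 43.1 and 38.1 CPM in controls, 15.8, 15.5, 12.1, 14.7 and 20.9 CPM with VWF, and 16.2, 25.9, 20.6 and 24.4 CPM with LPS. VWF cultures lay below all controls, and LPS cultures overlapped both. VWF gave a log2 fold change of -1.08 ± 0.17 (adjusted p = 0.000304) and LPS one of -0.62 ± 0.17 (adjusted p = 0.00829, under 2-fold). The VWF call went just under 2-fold without VWF replicate 3 or control replicate 4 (-0.98 in each case).

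At 16 h neither treatment changed Tlr4 past the test. It measured 51.6, 58.5, 53.0, 51.8 and 28.7 CPM in controls, 34.6, 38.0, 41.1, 31.5 and 42.3 CPM with VWF, and 55.8, 53.3, 53.1 and 35.9 CPM with LPS. The lowest control and the lowest LPS culture were libraries that stood apart. With VWF the log2 fold change was -0.39 ± 0.18 (adjusted p = 0.150), and -0.46 ± 0.08 (adjusted p = 0.000643) without those libraries. With LPS it was 0.05 ± 0.21 (adjusted p = 0.868).

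The plot of CPM by culture shows these values for all 9 genes.

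**Figure D3:**
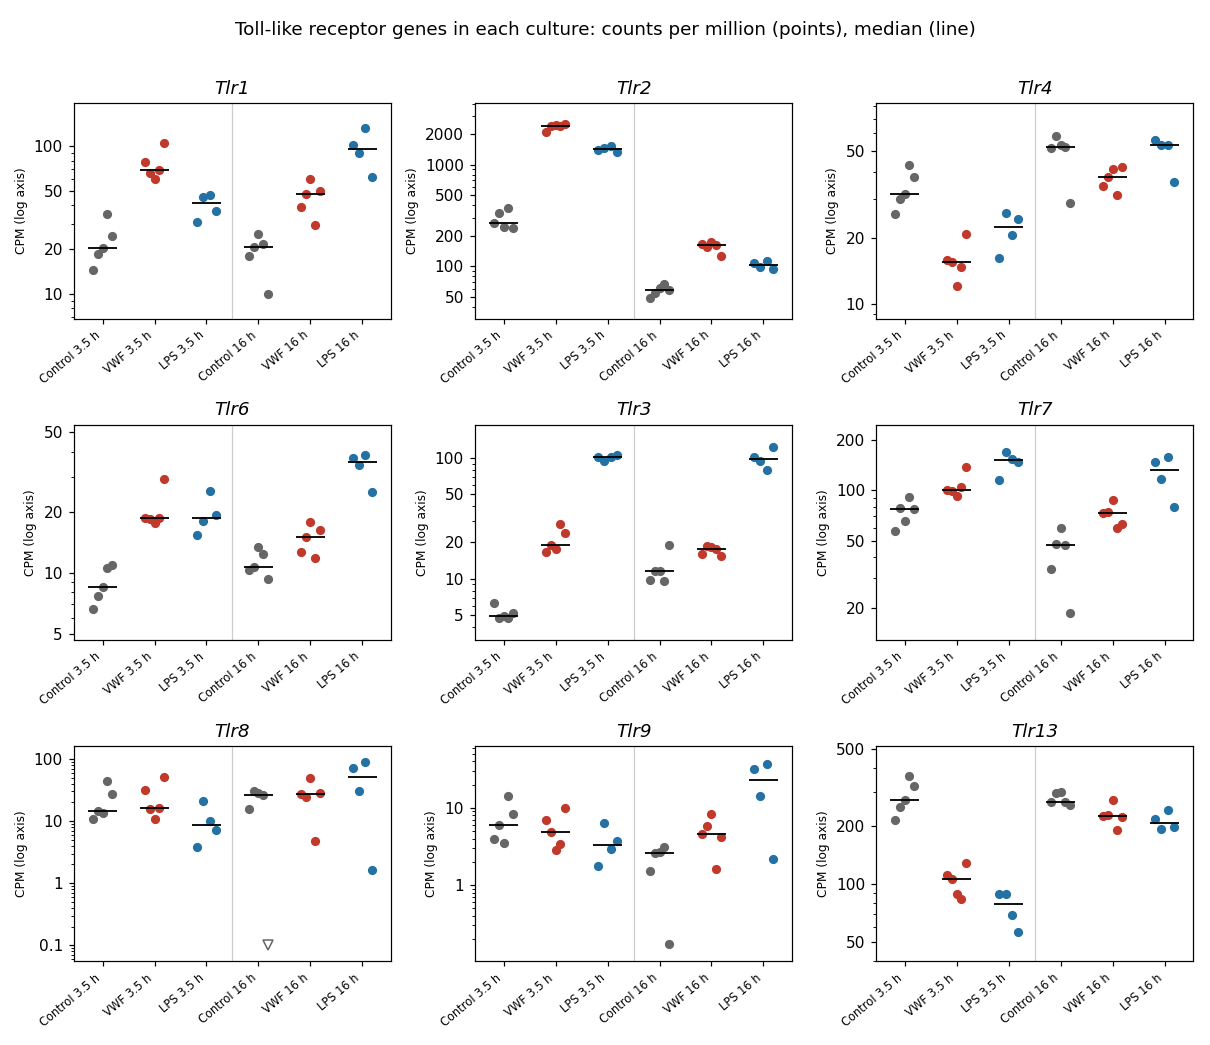
Each point is the CPM of 1 culture (y axis, log scale) in the 6 groups (x axis; grey controls, red VWF, blue LPS), lines are group medians, and the open triangle marks the control culture in which Tlr8 was listed at 0, drawn at the bottom of the axis. Tlr2 groups are apart within each time, whereas Tlr8 and Tlr9 spread widely, with Tlr9 running from 2.19 to 37.3 CPM among LPS cultures at 16 h.

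Tlr3, the receptor for double-stranded RNA, had the largest change of any of the 9 genes with LPS at 3.5 h. It measured 6.31, 4.79, 4.93, 4.76 and 5.24 CPM in controls, 16.6, 19.1, 17.7, 28.2 and 23.9 CPM with VWF, and 102, 94.0, 102 and 106 CPM with LPS. The groups were far apart, and the LPS cultures differed little among themselves. LPS raised Tlr3 by 4.29 ± 0.11 on the log2 scale (adjusted p = 1.84e-10) and VWF by 2.03 ± 0.16 (adjusted p = 1.12e-06). VWF lay below LPS by -2.24 ± 0.15 (adjusted p = 1.22e-06), the only receptor gene called between the treatments at 3.5 h, where 11.4% of 7500 genes were called and 6.71% were called lower with VWF. Scaled by library totals alone, Tlr1 (1.26), Tlr2 (1.05) and Tlr8 (1.62) were called higher with VWF than with LPS as well.

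At 16 h Tlr3 was still high with LPS, while VWF no longer passed the test. It measured 9.86, 11.5, 11.7, 9.64 and 19.1 CPM in controls, 16.1, 18.9, 18.2, 17.6 and 15.6 CPM with VWF, and 102, 94.3, 79.3 and 124 CPM with LPS. The highest control, replicate 5, was a library that stood apart and lay above every VWF culture. Against control this was 3.04 ± 0.23 with LPS (adjusted p = 4.03e-06) and 0.48 ± 0.18 with VWF (adjusted p = 0.0708). Without the libraries that stood apart, the VWF value was 0.69 ± 0.10 and passed, under 2-fold (adjusted p = 0.000231). Of the exon bases of Tlr3, 7.32% overlap the antisense gene Gm45542, whose reads cannot be told apart without strand.

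Tlr7, which encodes a receptor for single-stranded RNA, was higher with LPS at both times. At 3.5 h it measured 57.1, 78.2, 65.4, 91.7 and 77.7 CPM in controls, 99.7, 99.3, 92.2, 104 and 138 CPM with VWF, and 115, 169, 154 and 147 CPM with LPS. Both treatments lay above all controls, VWF by a narrow margin. The log2 fold change was 1.00 ± 0.14 with LPS (adjusted p = 0.000108), a fold of 1.99 just under the 2-fold limit, and 0.54 ± 0.14 with VWF (adjusted p = 0.00957). With DESeq2, and without LPS replicate 1 or control replicate 2, 4 or 5, the LPS value passed the 2-fold limit and was called. Scaled by library totals alone, the VWF value did not pass (0.32, adjusted p = 0.0980).

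At 16 h Tlr7 measured 34.2, 47.7, 59.7, 47.1 and 18.6 CPM in controls, 73.7, 73.8, 87.5, 59.2 and 63.3 CPM with VWF, and 147, 116, 158 and 80.0 CPM with LPS. LPS cultures were above all controls, and VWF cultures overlapped both groups. Against control, LPS cultures were higher by 1.62 ± 0.33 on the log2 scale (adjusted p = 0.00217), and the VWF value was 0.77 ± 0.27 (adjusted p = 0.0592). Without the libraries that stood apart, the latter was 0.67 ± 0.16 (adjusted p = 0.00651).

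Tlr13, which encodes a receptor for bacterial ribosomal RNA, was the receptor gene that fell most with either treatment at 3.5 h. It measured 214, 251, 273, 365 and 322 CPM in controls, 112, 106, 89.2, 83.4 and 129 CPM with VWF, and 89.2, 88.8, 69.5 and 56.6 CPM with LPS. All treated cultures lay below all controls. The log2 fold change was -1.44 ± 0.16 with VWF (adjusted p = 2.18e-05) and -1.90 ± 0.18 with LPS (adjusted p = 3.73e-06). The difference of VWF from LPS, 0.48 ± 0.17, passed at under 2-fold (adjusted p = 0.0371), and its adjusted p reached 0.102 with 1 culture left out.

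At 16 h the treated cultures lay closer to controls in Tlr13. It measured 268, 298, 301, 267 and 258 CPM in controls, 227, 228, 272, 189.8 and 224 CPM with VWF, and 218, 192, 242 and 197 CPM with LPS. LPS cultures lay below all controls, and 1 VWF culture lay within their range. Against control it was -0.37 ± 0.11 with LPS (adjusted p = 0.0152) and -0.30 ± 0.11 with VWF (adjusted p = 0.0602, and -0.25 ± 0.08, adjusted p = 0.0269, without the libraries that stood apart). The LPS value did not pass in every fit. Its adjusted p reached 0.0555 with 1 culture left out and 0.152 under the other alternatives. In controls the difference between the times was -0.03 ± 0.14 (adjusted p = 0.858).

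Tlr9, the receptor for unmethylated CpG DNA, was low and variable. At 3.5 h it measured 4.01, 5.95, 3.52, 14.4 and 8.34 CPM in controls, 7.04, 4.89, 2.82, 3.37 and 10.1 CPM with VWF, and 1.78, 6.35, 2.95 and 3.74 CPM with LPS. The 3 groups overlapped, and neither treatment passed the test (log2 fold change -0.34 ± 0.44 with VWF, adjusted p = 0.607, and -0.95 ± 0.46 with LPS, adjusted p = 0.0886). Without LPS replicate 2 (-1.35) or control replicate 3 (-1.15), Tlr9 was called lower with LPS.

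At 16 h Tlr9 measured 1.52, 2.60, 2.72, 3.15 and 0.174 CPM in controls, 4.54, 5.75, 8.40, 1.60 and 4.15 CPM with VWF, and 32.0, 14.2, 37.3 and 2.19 CPM with LPS. The lowest culture of each group was the library that stood apart, and the LPS one lay inside the control range. The log2 fold change with LPS was 3.41 ± 0.86 (adjusted p = 0.00797), and 3.51 ± 0.36 (adjusted p = 2.03e-05) without those libraries. VWF lay below LPS by -2.12 ± 0.70 (adjusted p = 0.0244), and by -2.26 ± 0.36 (adjusted p = 0.000493) without them. That call was lost without VWF replicate 1 or 5, or LPS replicate 1 or 3 (adjusted p = 0.0516 to 0.0718).

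Tlr8, a relative of Tlr7 on the X chromosome, had the widest spread between cultures of one group. At 3.5 h it measured 10.6, 14.4, 13.3, 44.7 and 27.7 CPM in controls, 31.7, 15.6, 10.8, 16.1 and 52.1 CPM with VWF, and 3.84, 21.0, 9.90 and 7.26 CPM with LPS. The groups overlapped, and neither treatment passed the test (0.22 ± 0.50 with VWF, adjusted p = 0.784, and -1.06 ± 0.52 with LPS, adjusted p = 0.0960). Without LPS replicate 2, Tlr8 was called lower with LPS (-1.65, adjusted p = 0.0155). VWF against LPS was called without LPS replicate 2 (1.89, adjusted p = 0.0160) or VWF replicate 3 (1.495, adjusted p = 0.0381), higher with VWF.

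At 16 h Tlr8 measured 15.7, 30.2, 28.6 and 26.5 CPM in 4 controls and was listed at 0 in the fifth. It measured 27.0, 24.3, 49.5, 4.79 and 27.8 CPM with VWF, and 71.9, 31.0, 88.8 and 1.63 CPM with LPS. The libraries that stood apart were again the lowest of their groups. With LPS the log2 fold change was 1.28 ± 1.22 (adjusted p = 0.409), and 1.37 ± 0.36 without those libraries, which was called (adjusted p = 0.00962). With VWF it was 0.38 ± 0.94 (adjusted p = 0.825), and 0.36 ± 0.28 (adjusted p = 0.328) without them.

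The spread of Tlr8 and Tlr9 moved with the share of counts in ribosomal protein genes. Within groups, the SD of log2 CPM was 2.22 for Tlr8 and 1.19 for Tlr9, larger than for 99.97% and 99.2% of genes, and 0.18 for Tlr2. Without control replicate 5 at 16 h, in which Tlr8 was listed at 0, the SD of Tlr8 was 1.33, and without all 3 libraries that stood apart it was 0.79 for Tlr8, 0.69 for Tlr9 and 0.19 for Tlr2. Deviations of Tlr9 from the group mean went with those of the ribosomal protein gene share at Pearson's r = -0.96 and Spearman's rho = -0.94 over 28 cultures, and r = -0.93 over the 25 cultures left without the libraries that stood apart. For Tlr8 they were r = -0.88 and rho = -0.91, with r = -0.85 over 25 cultures. Both were among many, since 20.3% of the 8858 other genes had an r of -0.8 or lower. Tlr1 (r = -0.91), Tlr4 (r = -0.89) and Tlr7 (r = -0.86) were also in that range, and Tlr6 (r = -0.73), Tlr13 (r = -0.66), Tlr2 (r = -0.30) and Tlr3 (r = 0.52) were not. Over the 25 cultures Tlr7 (r = -0.75) left the range and Tlr3 had r = 0.21. The points share libraries and depth, and the values are a description.

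The ribosomal protein gene share also differed between groups at 16 h, at 2.42% to 4.53% with LPS, 4.57% to 7.10% with VWF and 4.99% to 9.52% in controls. Of the 5 genes called higher with LPS at 16 h, Tlr1, Tlr6, Tlr7 and Tlr9 had levels that went down with this share within groups, and Tlr3 did not. Its part in their LPS values was not tested. At 3.5 h the share was 4.27% to 6.86% in controls, 4.01% to 6.44% with VWF and 5.22% to 7.17% with LPS, and the ranges overlapped.

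**Figure D4:**
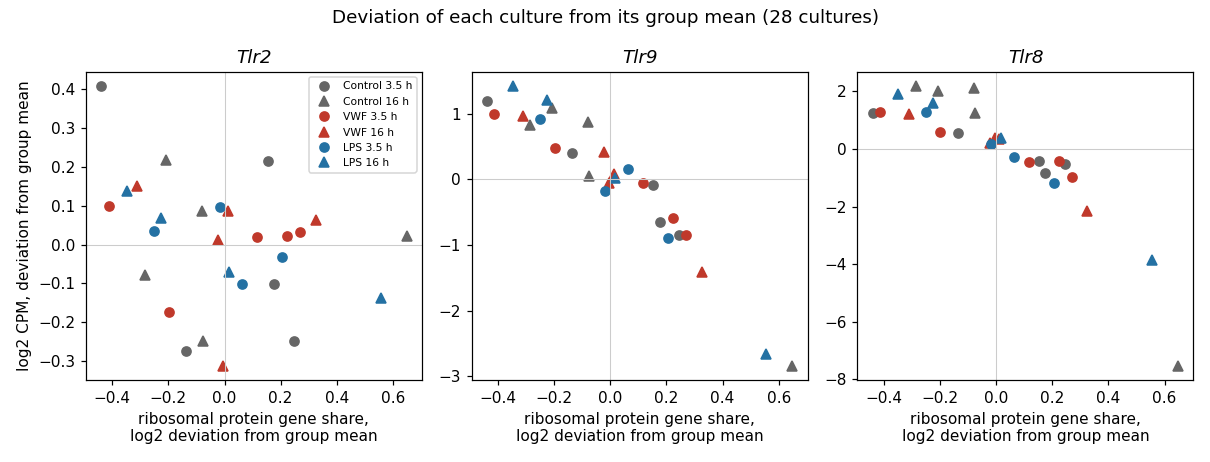
Each point is 1 of 28 cultures, with the log2 deviation of its ribosomal protein gene share from the group mean (x axis) and that of log2 CPM (y axis, own scale in each panel) for Tlr2, Tlr9 and Tlr8. Tlr9 and Tlr8 run down to the right (r = -0.96 and -0.88), and Tlr2 shows a loose scatter (r = -0.30).

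The ratio of a pair of receptor genes inside 1 culture does not depend on scaling between cultures. On counts per kilobase, the geometric mean ratio of Tlr2 to Tlr4 was 15.9 in controls, 283 with VWF and 124 with LPS at 3.5 h. At 16 h it was 2.23, 7.67 and 3.87. In an exact permutation test, two-sided, with Benjamini-Hochberg adjustment over 22 tests, the log2 ratio with VWF exceeded that of control by 4.15 at 3.5 h and 1.78 at 16 h, and that of LPS by 1.19 and 0.99 (p = 0.00794 against control and 0.0159 against LPS, the smallest that 5 against 5 and 5 against 4 cultures allow, adjusted p = 0.0318 in each case). All VWF cultures lay above all cultures of the other 2 groups. Taken as 4 same-numbered pairs, VWF exceeded LPS at 16 h in 4 of 4 pairs, by 1.11 ± 0.16 (SD), and the exact permutation test gave p = 0.125, the smallest that 4 pairs allow.

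The ratio of Tlr1 to Tlr6 was 2.77 in controls, 4.10 with VWF and 2.28 with LPS at 3.5 h, and 1.83, 3.34 and 3.13 at 16 h. By the same exact permutation test, it was higher with VWF than in controls at both times (adjusted p = 0.0318), and higher with LPS than in controls at 16 h (adjusted p = 0.0318) but not at 3.5 h (log2 difference -0.28, adjusted p = 0.123). At 16 h VWF and LPS differed by 0.10 on the log2 scale (adjusted p = 0.454). The ratio of Tlr9 to Tlr7 fell with LPS at 3.5 h, from 0.102 to 0.0270 (adjusted p = 0.0318, exact permutation test). With VWF at 3.5 h it was 0.0562, and at 16 h it was 0.0434 in controls, 0.0711 with VWF and 0.134 with LPS, and none of these comparisons passed (log2 difference at 16 h 1.63 with LPS, adjusted p = 0.123, and 0.71 with VWF, adjusted p = 0.349).

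Whether a treatment effect differed between the times was tested as an interaction in the edgeR fit. For VWF, 5 receptor genes passed and 3 were called, where 32.6% of 8660 genes passed and 13.5% were called. Relative to control, the VWF effect at 16 h was smaller for Tlr2 (-1.59 ± 0.18, adjusted p = 1.05e-06) and Tlr3 (-1.53 ± 0.25, adjusted p = 6.94e-05), and the fall of Tlr13 was smaller (1.18 ± 0.20, adjusted p = 0.000107). Mean Tlr3 went from 21.1 to 17.3 CPM with VWF and from 5.21 to 12.4 CPM in controls. Tlr4 (0.72 ± 0.25) and Tlr6 (-0.82 ± 0.24) passed at under 2-fold. Tlr4 did not pass with the replicate number as a block (adjusted p = 0.0702), and reached 0.0801 with 1 culture left out. Scaled by library totals alone, Tlr6 did not pass (adjusted p = 0.0634).

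For LPS, 5 passed and all 5 were called, where 48.8% of 8748 genes passed and 26.3% were called. For Tlr9 the LPS effect went from -0.95 at 3.5 h, which did not pass, to 3.41 at 16 h (change 4.40 ± 1.03, adjusted p = 0.00196). The LPS effect at 16 h was larger for Tlr1 (1.55 ± 0.39, adjusted p = 0.00359). It was smaller for Tlr2 (-1.44 ± 0.20, adjusted p = 1.14e-05) and Tlr3 (-1.24 ± 0.25, adjusted p = 0.000635). The fall of Tlr13 had likewise shrunk (1.55 ± 0.23, adjusted p = 2.41e-05). For Tlr3 the mean level with LPS hardly moved, at 101 CPM at 3.5 h and 99.7 CPM at 16 h. The control mean was 5.21 CPM at 3.5 h and 12.4 CPM at 16 h. Without the libraries that stood apart, Tlr8 was called as well (2.45 ± 0.72, adjusted p = 0.00798), and Tlr4 (0.67) and Tlr7 (0.63) passed at under 2-fold.

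Over time within a treatment, the controls had 2 of the 8 tested receptor genes called, both lower at 16 h, Tlr2 and Tlr9 (-1.84 ± 0.62, adjusted p = 0.0359), where 9.08% of 8333 genes were called and 5.09% were called lower. Tlr3 did not reach the filter there. Its control cultures held 4.8 to 6.3 CPM at 3.5 h and 9.6 to 19.1 CPM at 16 h, without overlap. With filterByExpr as the filter, 9 receptor genes were tested in controls over time and 3 were called. The Tlr9 call was lost in the fit with the replicate number as a block, and without control replicate 2 or 5 at 3.5 h or replicate 1, 2 or 3 at 16 h (adjusted p = 0.0528 to 0.0773). Among the control cultures of both times, only replicate 4 at 3.5 h reached 10 TPM for Tlr9. Without that culture Tlr9 fell below the filter and was not tested, so the call was lost there as well. With VWF 3 of the 8 tested were called, Tlr2 lower, and Tlr4 (1.26 ± 0.14, adjusted p = 1.46e-05) and Tlr13 (1.15 ± 0.14, adjusted p = 2.04e-05) higher, where 21.4% of 7927 genes were called. With LPS 5 were called, Tlr2 lower, and Tlr1, Tlr4, Tlr9 and Tlr13 higher by 1.304, 1.21, 2.56 and 1.51 on the log2 scale, where 28.1% of 6987 genes were called. With the replicate number as a block, Tlr9 was not called there (2.15 ± 0.91, adjusted p = 0.0877). Tlr9 reached the filter for LPS over time only at 16 h, with at most 3.98 TPM at 3.5 h. With no filter, 4 were called. Tlr8 over time with LPS was 2.23 ± 0.95 (adjusted p = 0.0704), and 2.64 ± 0.54 (adjusted p = 0.00196) without LPS replicate 4 at 16 h. For Tlr3 the difference between the times with LPS was 0.00 ± 0.14 (adjusted p = 0.984).

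Between VWF and LPS cultures at 16 h, 4 receptor genes were called, all lower with VWF than with LPS (Tlr1, Tlr3, Tlr6 and Tlr9), where 25.5% of 7574 genes were called and 14.5% were called lower. Tlr9 reached the filter there only in LPS cultures, as VWF cultures held at most 7.37 TPM. With no filter, 3 were called. The median of the 9 genes was -0.85 against 0.00 for all genes. Tlr3 differed most, at -2.52 ± 0.13 (adjusted p = 1.97e-07). Tlr2 was the one receptor gene that passed in the other direction (0.61 ± 0.11, adjusted p = 0.000713, under 2-fold). Scaled by library totals alone, Tlr2 (1.06) was called higher with VWF, and of the 4 only Tlr3 stayed called. Without the libraries that stood apart, Tlr8 passed as lower with VWF at under 2-fold (-0.97 ± 0.37, adjusted p = 0.0418).

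Genes that act with the receptors were followed on a list of 53, by role. With VWF at 3.5 h, 16 of the 43 tested passed as higher and 9 as lower, against 22.3% and 21.3% of all genes. Cd14, the co-receptor that hands lipopolysaccharide to TLR4, rose (2.39 ± 0.13, adjusted p = 6.71e-08), and Cd180, which encodes a receptor-like surface protein of B cells and macrophages, fell (-1.24 ± 0.26, adjusted p = 0.00246). Of 5 adaptors tested, 3 passed, all higher, led by Myd88 (2.12 ± 0.10, adjusted p = 1.37e-08). Of 11 kinases and ubiquitin ligases, 6 passed as higher, led by Peli1 (2.72 ± 0.09), and 1 as lower, Tab1 (-0.89 ± 0.11). Of 6 inhibitors 3 passed as higher, led by Tnfaip3, which encodes A20 (2.89 ± 0.17), and Tollip was lower (-0.32 ± 0.08). Tollip did not pass with filterByExpr as the filter, with no filter or in the fit of all groups (adjusted p = 0.0518 to 0.104).

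Genes of the endosomal machinery were followed in 3 groups. With VWF at 3.5 h, of 5 genes for folding and transport, Lrrc59 passed as higher (0.74 ± 0.17) and 2 passed as lower, led by Cnpy4 (-0.35 ± 0.11), and Unc93b1 did not pass (0.12 ± 0.07, adjusted p = 0.223). In the fit of all groups Lrrc59 did not pass (adjusted p = 0.0853). Of 5 endosomal proteases only Ctsk passed, lower (-0.56 ± 0.17), and it did not pass without VWF replicate 2 or control replicate 3 (adjusted p = 0.0502 and 0.0531). Cnpy4 did not pass without control replicate 1, 2 or 3 or VWF replicate 2, 3 or 4 (adjusted p = 0.0504 to 0.0651). Among 6 genes for handling nucleic acids in endosomes, Slc15a3, an endolysosomal transporter, rose (0.79 ± 0.11) and 3 fell, led by the nucleoside transporter Slc29a3 (-1.44 ± 0.14, adjusted p = 5.97e-06).

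With LPS at 3.5 h, 18 of the 41 tested passed as higher and 8 as lower, against 31.8% and 33.9% of all genes. Myd88 (2.62 ± 0.10), Cd14 (1.96 ± 0.13), Peli1 (3.78 ± 0.09) and Tnfaip3 (3.70 ± 0.20) again led their groups, and Tab1 fell (-1.42 ± 0.11). Among the inhibitors Rnf216 was lower (-0.42 ± 0.12). Among the genes of nucleic acid handling, Slc15a3 was higher (0.97 ± 0.13) and its relative Slc15a4 lower (-0.62 ± 0.09). Cnpy3, which encodes a chaperone of the receptors, was lower (-0.74 ± 0.11). Unc93b1 (0.33 ± 0.10, adjusted p = 0.0104) and the protease gene Ctss (0.51 ± 0.11, adjusted p = 0.00213) were the highest of their roles, but under library size scaling these were -0.21 (adjusted p = 0.0455) and -0.03 (adjusted p = 0.772). Ly96, which encodes the MD-2 partner of TLR4, rose by 1.44 ± 0.14 with LPS (adjusted p = 5.18e-06) and by 0.41 ± 0.13 with VWF (adjusted p = 0.0252), and was singled out after its values were seen.

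With VWF at 16 h, 8 of the 39 tested passed as higher and 6 as lower, against 13.1% and 14.7% of all genes, and 4 were called, 2 in each direction, against 8.71% of all genes. Cd14 was now lower than in controls (-1.63 ± 0.13, adjusted p = 5.41e-06), and Irak3, which encodes an inhibitory kinase of the pathway, was higher (1.85 ± 0.17, adjusted p = 2.18e-05). The others called were Ikbke, a kinase that activates interferon regulatory factors (1.02 ± 0.12), and Cd36, a scavenger receptor that acts with TLR2 and TLR6 (-1.135 ± 0.12), the latter singled out after its values were seen. Ikbke went under 2-fold without control replicate 1 or VWF replicate 2 or 3 (0.972 to 0.986). The leaders of the other roles passed at under 2-fold. Higher were Myd88 (0.58), Cnpy3 (0.70, adjusted p = 0.0422), Ctss (0.46) and Pld4, an exonuclease gene (0.41), and lower were Ticam1, which encodes TRIF (-0.53), and Slc15a3 (-0.49). Cnpy3 did not pass when any culture other than control replicate 5 was left out (adjusted p = 0.0523 to 0.0865).

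With LPS at 16 h, 25 of 40 passed as higher and 4 as lower, against 27.3% and 26.4% of all genes, and the median log2 fold change was 0.87 over the list and -0.03 over all genes. Tnfaip3 was higher (3.41 ± 0.35), as were Slc15a3 (2.67 ± 0.12), the adaptor gene Pik3ap1 (2.63 ± 0.73, adjusted p = 0.0130), Ikbke (2.32 ± 0.10), Cd14 (1.60 ± 0.16), the endosomal protease gene Lgmn (1.12 ± 0.31, adjusted p = 0.0125) and Unc93b1 (0.88 ± 0.11, adjusted p = 8.47e-05, under 2-fold). Without LPS replicate 4, Lgmn was under 2-fold (0.93), and under library size scaling Lgmn was 0.59 and Unc93b1 0.32, which did not pass (adjusted p = 0.0844). Lower were the lysosomal nuclease gene Dnase2a (-1.84 ± 0.41, adjusted p = 0.00407), Cd36 (-0.99 ± 0.10) and the kinase gene Irak1 (-0.76 ± 0.17), the latter pair at under 2-fold.

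**Figure D5:**
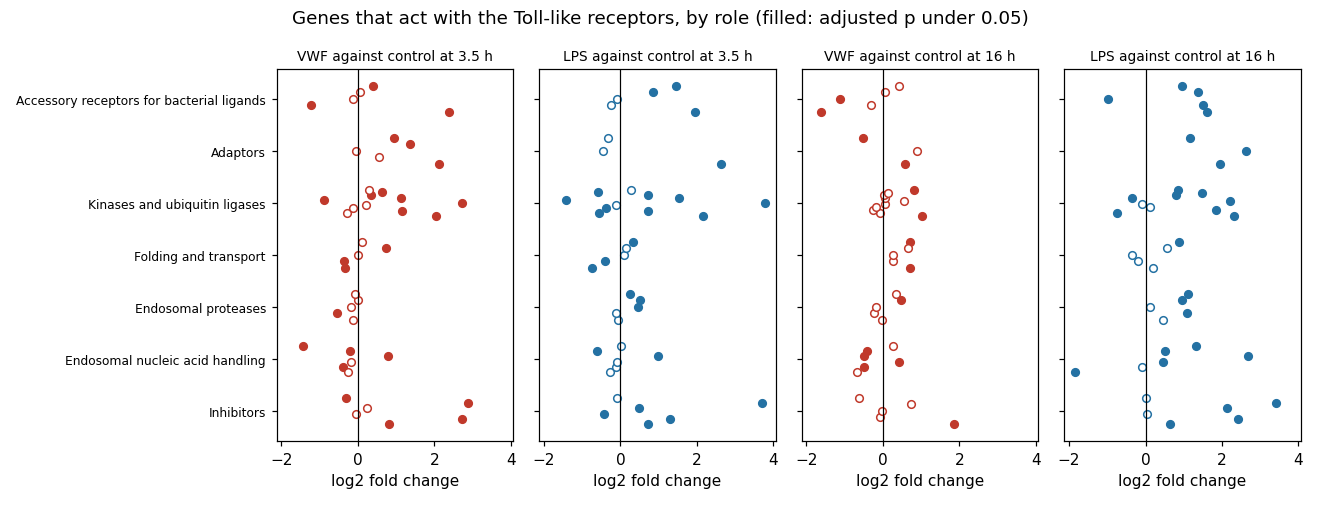
Each point is 1 gene of the list by its role (y axis) with its log2 fold change against control (x axis) in the 4 comparisons, filled at an adjusted p under 0.05. With VWF at 16 h 4 points lie past 2-fold, Irak3 (1.85), Ikbke (1.02), Cd36 (-1.135) and Cd14 (-1.63), and with LPS at 16 h most lie to the right.

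Among 8858 other genes, those with the most similar pattern to each receptor except Tlr8 over the 28 cultures were named by the root mean square difference of mean-centred log2 CPM. For Tlr2 the nearest were the long noncoding RNA gene AI504432 at 0.55 and Tnfaip2 at 0.70, where Tlr2 itself varied by 1.97. Slc31a1 (0.31) and Fyb (0.37) were nearest to Tlr1, Themis2 (0.40) and Bambi-ps1 (0.40) to Tlr3, Rab11fip5 (0.20) and Exoc6 (0.28) to Tlr4, and Tmem170b (0.26) to Tlr6. For Tlr7 they were Zfp513 (0.26) and Zfp429 (0.28), for Tlr9 Pik3ap1 (0.41) and Slfn10-ps (0.59), and for Tlr13 Rassf5 (0.21) and Trim8 (0.23). The receptors themselves varied by 0.93 (Tlr1), 1.525 (Tlr3), 0.66 (Tlr4 and Tlr6), 0.71 (Tlr7), 1.42 (Tlr9) and 0.75 (Tlr13). A smaller difference is therefore not by itself a closer match between receptors.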

How the data were processed

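The deposited table holds raw counts of reads per gene, 1 column per culture. The authors mapped paired-end reads to GRCm38 (mm10) and counted them with STAR, whose version is not given in the sources used here, as is whether strand was used. Gene names, positions and exon lengths came from GENCODE M21, and TPM was computed from the counts and the union of exons. The 9 receptor genes and the gene lists were chosen with earlier results of these data known. Tests used edgeR 4.0.16 (quasi-likelihood, robust, TMM factors, groups of the comparison only) in R 4.3.3 on genes at 10 TPM in any culture compared. Ratios used exact permutation tests (scipy 1.17.1). DESeq2 1.42.0, other scalings and filters, a replicate block and each culture left out were alternatives, and limma 3.58.1 with sample weights and the fit without 3 libraries were added after the data were seen. Fits were tested on simulated data. Replicate numbers are in the labels, and their meaning is not given. Same-numbered VWF and LPS cultures at 16 h deviated together in every pair (r = 0.20 to 0.81), so they were also taken as pairs there. Many genes deviated with the ribosomal protein gene share, and whether that gave these correlations was not tested. Unless stated, values come from the fit without the block, and the block changed no number of calls in that comparison. Named genes were all 9 receptors, and per role and comparison with control the list gene with the largest rise and fall that passed, and the 2 genes nearest in pattern to each receptor. No pair of cultures of a group matched within sampling noise. Those nearest to Tlr8 and the second for Tlr6 are not reported here. Protein sequences were not analysed here. Tlr4 and Tlr7 windows were not used here.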

Additional observations from a re-analysis of the deposited data

Results flagged for a closer look

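In 54 groups of 4 or 5 cultures (9 genes in 6 groups), 6 held a culture far from the others of its group, where chance gives about 1 in 20 groups. Tlr2 was low in VWF replicate 1 at 3.5 h, at 2104 CPM. Tlr6 and Tlr7 were high in VWF replicate 5 at 3.5 h, at 29.31 and 137.8 CPM. At 16 h, control replicate 5 was high for Tlr3 (19.14 CPM) and low for Tlr4 (28.73 CPM), and LPS replicate 4 was low for Tlr4 (35.9 CPM).

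The effect of a treatment against control differed between 16 h and 3.5 h by the edgeR interaction test. For VWF the change of the log2 effect was -1.587 for Tlr2, -1.525 for Tlr3, 1.177 for Tlr13, -0.821 for Tlr6 and 0.7224 for Tlr4. The values of Tlr6 and Tlr4 did not pass under every alternative. For LPS it was -1.44 for Tlr2, -1.241 for Tlr3, 1.546 for Tlr1, 1.551 for Tlr13 and 4.403 for Tlr9. Both sets of tests share the control cultures.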

How the results depend on the processing

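With 1 culture left out, 1009 of the receptor values kept their direction and side of the call, 13 lost it, 15 gained it and 18 changed sign. Under the other alternatives 776 kept both, 9 lost, 21 gained and 23 changed sign. The cause of these changes was not tested, except where a filter or a smaller design sets it.

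Without a fold threshold the receptor genes called numbered 7 with LPS at 3.5 h, 5 between VWF and LPS at 3.5 h and 7 at 16 h, 6 for VWF over time and 5 for the change of the VWF effect. With library size scaling they were 4 for VWF against LPS at 3.5 h and 2 at 16 h. With 1 culture left out they ranged from 1 to 3 for VWF against LPS at 3.5 h, from 2 to 4 at 16 h and from 1 to 2 for controls over time.

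With the replicate number as a block, 1 receptor gene was called for controls over time, in place of 2, because Tlr9 no longer passed. Outside VWF against LPS at 16 h, same-numbered cultures did not deviate together in every case, with correlations of deviations as low as -0.69. Blocked values changed sign, from values near 0, for Tlr6 in VWF against LPS at 3.5 h (-0.0359), Tlr4 with LPS at 16 h (-0.110), Tlr8 with VWF over time (-0.0273) and Tlr3 with LPS over time (-0.0136). The number called with LPS over time was 4 with the block, which lost Tlr9, and with LPS at 3.5 h it was 5. As same-numbered pairs at 16 h, the log2 ratio of Tlr2 to Tlr4 differed between VWF and LPS by 1.11, where 4 pairs cannot reach a p under 0.125.

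The sign of values also changed elsewhere. With library size scaling it was Tlr8 with VWF at 3.5 h (-0.000214) and Tlr4 with LPS at 16 h (-0.528), and 3 values that had passed at under 2-fold, Tlr4 in VWF against LPS at 16 h (0.0609), and Unc93b1 (-0.206) and Ctss (-0.0308) with LPS at 3.5 h. Unc93b1 passed in both directions (adjusted p = 0.0455 with that scaling). With limma and sample weights it was Tlr6 in VWF against LPS at 3.5 h (-0.209), Tlr8 with VWF at 16 h (-0.00695), Tlr1 (0.166), Tlr8 (0.740) and Tlr13 (0.121) in controls over time, and the change of the VWF effect on Tlr8 (-0.0851). In the fit of all groups Tlr4 with LPS at 16 h was -0.00200. Without the libraries that stood apart, Tlr8 in controls over time was 0.193. Tlr3 with LPS over time, 0.00 as reported, was -0.0124 with DESeq2, -0.0123 with median-of-ratios factors, -0.0732 with library size scaling, -0.0232 with filterByExpr, -0.0176 with no filter, -0.0496 in the fit of all groups, -0.0627 with limma and -0.115 without the libraries that stood apart.

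With 1 culture left out, values that spanned 0 were Tlr8 with VWF at 3.5 h (-0.238 to 0.634), Tlr6 in VWF against LPS at 3.5 h (-0.0783 to 0.255), Tlr4 with LPS at 16 h (-0.0979 to 0.171), Tlr8 (-0.330 to 0.285) and Tlr13 (-0.121 to 0.0640) in controls over time, Tlr8 with VWF over time (-0.261 to 0.530), the change of the VWF effect on Tlr8 (-0.225 to 0.660) and Tlr3 with LPS over time (-0.115 to 0.110). For the ratios, fewer cultures raise the smallest p that can be reached, and the log2 differences then ranged from 2.84 to 3.06 for Tlr2 to Tlr4 with LPS at 3.5 h, from 1.09 to 1.31 between VWF and LPS at 3.5 h and from 0.908 to 1.11 at 16 h. For Tlr1 to Tlr6 they ranged from 0.797 to 0.943 between VWF and LPS at 3.5 h and from 0.614 to 0.833 with LPS at 16 h. For Tlr7 to Tlr8 they ranged from 1.83 to 2.47 with LPS at 3.5 h and from -1.12 to 0.480 between VWF and LPS at 16 h, and for Tlr9 to Tlr7 from -2.15 to -1.70 with LPS at 3.5 h.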
